A study of Homo sapiens with 2 samples.

Results

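The CCN genes and a set of YAP target genes were examined in MRC-5 cells, a human fibroblast line derived from fetal lung, after knockdown of periostin. The 8 genes were CCN1 to CCN5, ANKRD1, AMOTL2 and LATS2, and they were taken by name from the 21739 genes that the array probes could be given through RefSeq accessions. One culture had been transfected with control siRNA and another with periostin siRNA at 10 nM for 48 h, and each RNA was read on 1 Agilent expression array in a single colour. The concentration of the control siRNA on the array experiment was not given in the sources used here. Both groups were the same line, and no other treatment of either was named for the arrays in the sources used here. Since each condition had 1 array, no difference could be tested, no p-value is given, and the number of arrays limits the precision of every ratio. The ± values of a signal are errors that Feature Extraction assigned to its spot, and those of a log2 ratio are SDs over repeated spots. Neither covers the difference between cultures. For bright genes the assigned error was nearly a fixed share of the signal, so the error propagated to the ratio was 0.20 for each. It was not measured from repeated spots. Their SD of the ratio was 0.050 to 0.060 at the signals of CCN1, CCN2 and CCN3.

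CCN proteins are matricellular proteins, secreted molecules that sit in the extracellular matrix and signal through integrins and other receptors without being structural fibres; periostin itself belongs to the same functional class. CCN1, formerly CYR61, and CCN2, formerly CTGF, are known in fibroblasts for adhesion, matrix production and fibrosis. CCN1, CCN2, ANKRD1, AMOTL2 and LATS2 are widely used as target genes of YAP and TAZ. In the Hippo pathway the MST kinases activate the LATS kinases, which phosphorylate YAP and TAZ and keep them out of the nucleus, whereas unphosphorylated YAP and TAZ enter the nucleus and act through TEAD factors bound to DNA. AMOTL2 and LATS2 restrain YAP and TAZ, so that these targets are known as feedback genes.

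TEAD factors bind the letters GGAATG, or CATTCC on the other strand. Promoter sequences of 4 of the 8 genes, ANKRD1, AMOTL2, CCN2 and LATS2, were matched by symbol in RefSeq (GRCh38.p14), as windows from 250 bases before to 50 bases after a transcription start. All 4 genes held the letters, in 4 of their 5 windows, whereas 14.0% of the 35116 windows of this length did. These 4 genes are shown because they had a window, and all 4 are among the widely used targets named above. No window of CCN1, CCN3, CCN4 or CCN5 is shown, and ANKRD1 had no ratio. Whether the number of matches went with the ratios was not tested. Capitals mark the matches on either strand. Sequences are 5′ to 3′ on the minus strand, on which each of these genes is encoded, and those of CCN2, AMOTL2 and ANKRD1 end at the base before the start. CCN2 lies at chr6:131951373-131951622, AMOTL2 at chr3:134374448-134374697, ANKRD1 at chr10:90921088-90921337, and the 30 bases of LATS2 at chr13:21061560-21061589.
CCN2: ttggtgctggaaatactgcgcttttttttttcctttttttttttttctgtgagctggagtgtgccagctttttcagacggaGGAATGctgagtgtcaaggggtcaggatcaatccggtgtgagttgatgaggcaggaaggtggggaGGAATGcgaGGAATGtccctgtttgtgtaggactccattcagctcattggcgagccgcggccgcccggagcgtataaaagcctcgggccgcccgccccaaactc
AMOTL2: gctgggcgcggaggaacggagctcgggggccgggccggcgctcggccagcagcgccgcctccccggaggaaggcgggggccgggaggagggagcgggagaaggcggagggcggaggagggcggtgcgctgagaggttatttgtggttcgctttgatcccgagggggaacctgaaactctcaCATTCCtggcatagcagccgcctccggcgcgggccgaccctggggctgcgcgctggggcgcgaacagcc
ANKRD1: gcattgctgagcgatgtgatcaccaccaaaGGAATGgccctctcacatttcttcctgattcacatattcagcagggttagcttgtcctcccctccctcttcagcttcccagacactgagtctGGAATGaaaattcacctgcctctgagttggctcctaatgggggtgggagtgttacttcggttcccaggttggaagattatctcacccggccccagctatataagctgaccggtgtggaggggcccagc
LATS2: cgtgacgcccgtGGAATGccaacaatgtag
CCN2 held 3 matches, which began at -169, -104 and -95 from the start, and 0.0826% of all windows of the 250 bases before a start held 3 or more. AMOTL2 held 1 at -69 on the opposite strand, and its window at another start held none. ANKRD1 held matches at -220 and -128, and the match of LATS2 began at +10, inside the transcribed part. A match of letters is a description and does not show that a factor was bound.

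Of the 8 genes, 7 were well above background on both arrays and ANKRD1 on neither. CCN2, CCN3 and CCN1 were lower with periostin siRNA, whereas CCN5, AMOTL2, LATS2 and CCN4 were higher. CCN5 was the only one past 3-fold, the threshold used in the study, and CCN2 and CCN3 were past 2-fold. Thus 1 of 7 genes was higher and 0 of 7 lower by more than 3-fold, where 3.37% of the 16050 genes with a ratio were higher and 2.75% lower. At 2-fold the counts were 1 of 7 higher and 2 of 7 lower, where 7.97% and 6.42% of all genes were. The log2 ratio (periostin over control siRNA) had a median of 0.45 over the 7 genes and 0.06 over all genes with a ratio, and the 7 values ran from -1.40 to 2.90, so that this median describes no common shift. In bulk RNA, fewer cells that express a gene and less of its RNA per cell cannot be told apart.

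**Figure D1:**
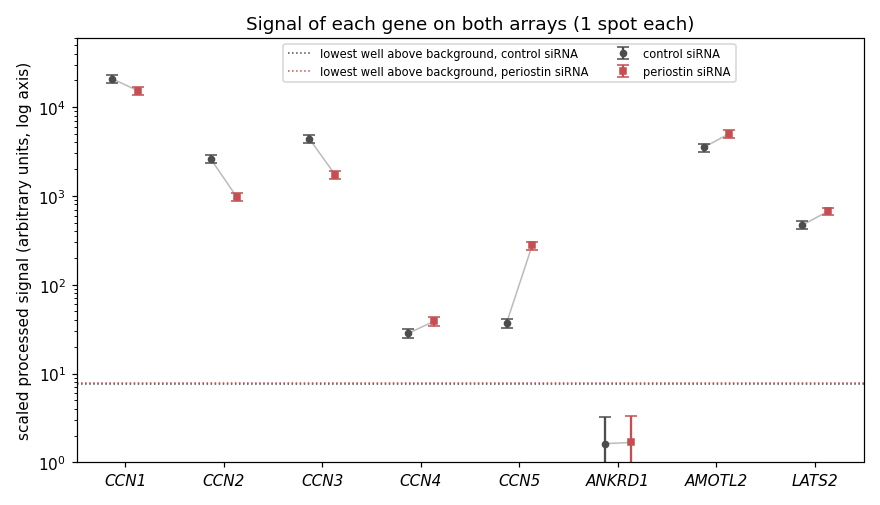
Scaled processed signal (arbitrary units, log axis) of the 8 genes with control siRNA (circles) and periostin siRNA (squares), 1 spot per gene and array, with the error that Feature Extraction propagates as bars and the lowest signal well above background of each array as dotted lines. CCN2 went from 2588 to 979 while CCN5 went from 36.9 to 276, and ANKRD1 lay under the dotted lines on both arrays.

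Each gene was measured by 1 probe printed once, so no second probe of any of the 8 could be set beside the first, and none of the spots carried an outlier or saturation flag. Signals were scaled to a common 75th percentile of 377.3 on both arrays. POSTN, the gene targeted by the siRNA, had a signal of 2638 in the control and 280 after knockdown, which is 9.43-fold lower.

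CCN2 is an integrin-binding CCN protein long used as a marker of fibroblast activation. Its signal was 2588 ± 259 with control siRNA and 979 ± 97.95 after periostin knockdown (error propagated by Feature Extraction for 1 spot). The log2 ratio was -1.40 with a propagated error of 0.20, a level 2.64-fold lower. The SD of the log2 ratio over spots of 1 probe was 0.060 among 171 probes printed 10 times with a signal like that of CCN2, so the difference was far larger than the spread between spots. Only 3.56% of all genes with a ratio had one as low or lower.

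CCN3, formerly NOV, is known to act against CCN2 in several settings, yet on these arrays its ratio was next to that of CCN2. Its signal was 4371 ± 437 in the control and 1729 ± 173 after knockdown. This gave a log2 ratio of -1.34 (propagated error 0.20). The ratios of CCN2 and CCN3 differed by 0.06, less than their combined propagated error of 0.29, and cannot be ordered.

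CCN1, the closest relative of CCN2 in known function and likewise a YAP target, was lower by less. Its signal was 20733 ± 2073 in the control and 15226 ± 1523 after knockdown. The log2 ratio was -0.45 with a propagated error of 0.20, and 18.6% of all genes had one as low or lower. CCN1 and CCN2 were both lower, but their log2 ratios differed by 0.96, more than the combined propagated error of 0.29.

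CCN5, formerly WISP2, is the CCN protein that lacks the C-terminal cystine knot domain of its relatives. Its signal was 36.9 ± 4.12 in the control and 276 ± 27.7 after knockdown, 7.49-fold higher. The log2 ratio was 2.90 with a propagated error of 0.22, and the SD over spots of like signal was 0.16. Of all genes with a ratio, 0.461% had one as high or higher. The control signal was dim, with a median pixel of 63.0 against a local background of 26.0, and the size of the ratio depended on the setting. The normexp correction, which was run on median pixels with an offset of 50, gave a log2 ratio of 1.84, still past 3-fold. The CCN2 and CCN5 ratios lay 4.31 log2 units apart, the widest gap among the 7 genes.

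CCN4, formerly WISP1 and named for its induction by Wnt signalling, was dim on both arrays. Its signal was 28.3 ± 3.30 in the control and 38.6 ± 4.21 after knockdown. The log2 ratio of 0.45 had a propagated error of 0.23 and an SD over spots of like signal of 0.29, and it was 0.13 under the normexp correction. A difference of this size lay close to the error of its spots. CCN6, the remaining CCN gene, was well above background with periostin siRNA alone, at 10.1 ± 1.93 against 2.46. Set against the lowest signal well above background with control siRNA, 7.55, it was 1.34-fold higher. This bound leaves out the error of a spot so near that lowest signal.

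**Figure D2:**
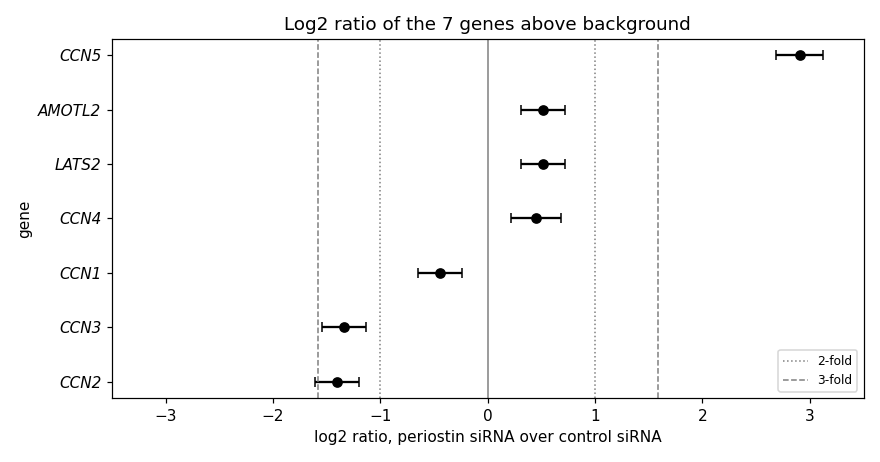
Log2 ratio, periostin over control siRNA (horizontal axis) for the 7 genes well above background on both arrays, with the propagated error of the spots as bars, and 2-fold and 3-fold as dotted and dashed lines. CCN2 (-1.40) and CCN3 (-1.34) lie left of 2-fold, CCN5 (2.90) lies right of 3-fold, and the other genes lie within 2-fold of no difference.

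The feedback targets of YAP and TAZ did not follow CCN1 and CCN2. AMOTL2, an angiomotin-like scaffold that binds YAP, had a signal of 3502 ± 350 in the control and 5012 ± 501 after knockdown. Its log2 ratio was 0.52 with a propagated error of 0.20, which is 1.43-fold higher. LATS2, the kinase that phosphorylates YAP and TAZ, had a signal of 468 ± 46.8 in the control and 668 ± 66.8 after knockdown. Its log2 ratio was 0.51 (propagated error 0.20). The ratios of AMOTL2 and LATS2 differed by 0.0034 and cannot be ordered, nor can those of LATS2 and CCN4. Ratios of this size were common on these arrays, since 20.3% of all genes had one as high as that of AMOTL2 or higher. AMOTL2 and CCN2 lay 1.92 log2 units apart, against a combined propagated error of 0.29.

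ANKRD1, an ankyrin repeat protein of muscle and a standard readout of YAP in many cell lines, was not well above background on either array. Its median pixel was 33.0 against a local background of 24.0 with control siRNA and 31.0 against 23.0 with periostin siRNA, and no ratio is given. The probe thus gave no reading of this target in MRC-5 cells under either condition.

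Ordered from the lowest to the highest log2 ratio, the genes were CCN2, CCN3, CCN1, CCN4, LATS2, AMOTL2 and CCN5. Of the 6 pairs of neighbours in this order, CCN3 with CCN1, CCN1 with CCN4, and AMOTL2 with CCN5 differed by more than their combined propagated error, and the other 3 did not. The same pairs differed by more than the combined SD over spots of like signal. With the normexp correction CCN4 moved to 0.13 and CCN5 to 1.84, and none of the 7 genes changed direction under any of the 12 alternative settings. Most settings could not change one. With 1 probe printed once per gene, the mean over probes, the median of spots and the filter on dim spots returned the same ratio. The authors' table and scaling by a constant moved all ratios alike, by -0.13 for scaling on the median, less than any of the 7 ratios.

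**Figure D3:**
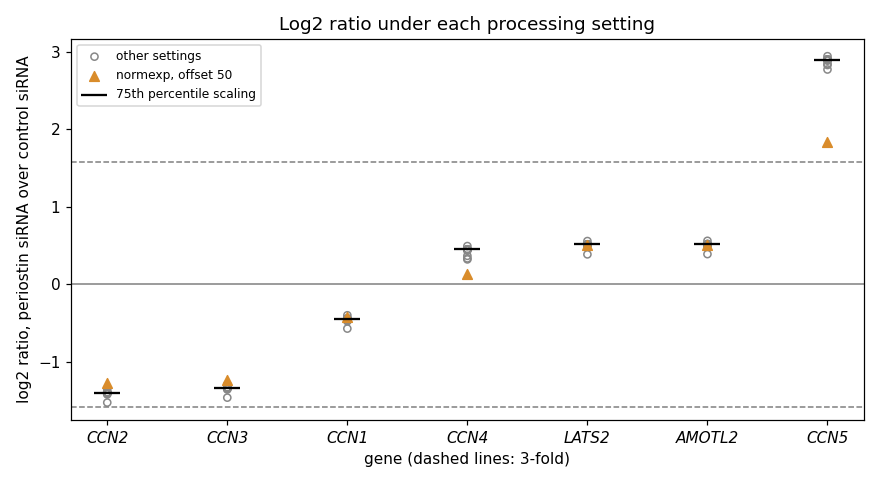
Log2 ratio, periostin over control siRNA (vertical axis) for each of the 7 genes under 13 processing settings, with the scaling on the 75th percentile as bars, the normexp correction as triangles, the other settings as open circles and 3-fold as dashed lines. The settings lie close together for the 5 brighter genes, and the normexp correction gives 0.13 for CCN4 and 1.84 for CCN5.

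Other genes of the YAP, TAZ and TEAD programme also lay on both sides of 0. Of 17 further target genes 16 could be measured, and 10 had a ratio above 0 and 6 below, where 54.5% of all genes with a ratio lay above. Their median log2 ratio was 0.20, beside 0.06 over all genes with a ratio. By more than 3-fold, 2 of 16 were lower and 1 of 16 higher, where 2.75% and 3.37% of all genes with a ratio were. NT5E, the ecto-enzyme CD73 that makes adenosine and a surface marker of mesenchymal cells, had a signal of 10619 in the control and 1674 after knockdown. Its log2 ratio was -2.66, although its second probe gave -1.40. FJX1, a secreted relative of the Drosophila four-jointed kinase, gave -1.73 from signals of 2216 and 669. TGFB2 passed 3-fold on the higher side by a small margin, at 3.02-fold, and did not under 5 of the alternative settings.

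Among the brightest of the remaining targets, F3, the tissue factor that starts coagulation, had a log2 ratio of -0.37. The receptor kinase AXL gave 0.21, MYOF, a ferlin of membrane repair, 0.15 and 0.10 by its 2 probes, and GADD45A, a stress-induced growth arrest gene, 0.67. IGFBP3, which binds insulin-like growth factors and is named here after its value was seen, gave -1.54 ± 0.11 (SD over 10 spots). Together with CCN1, CCN2, AMOTL2 and LATS2, 12 of the 20 target genes with a ratio lay above 0 and 8 below. This split is near the 54.5% of all genes above 0 and so is no result about these targets in particular.

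**Figure D4:**
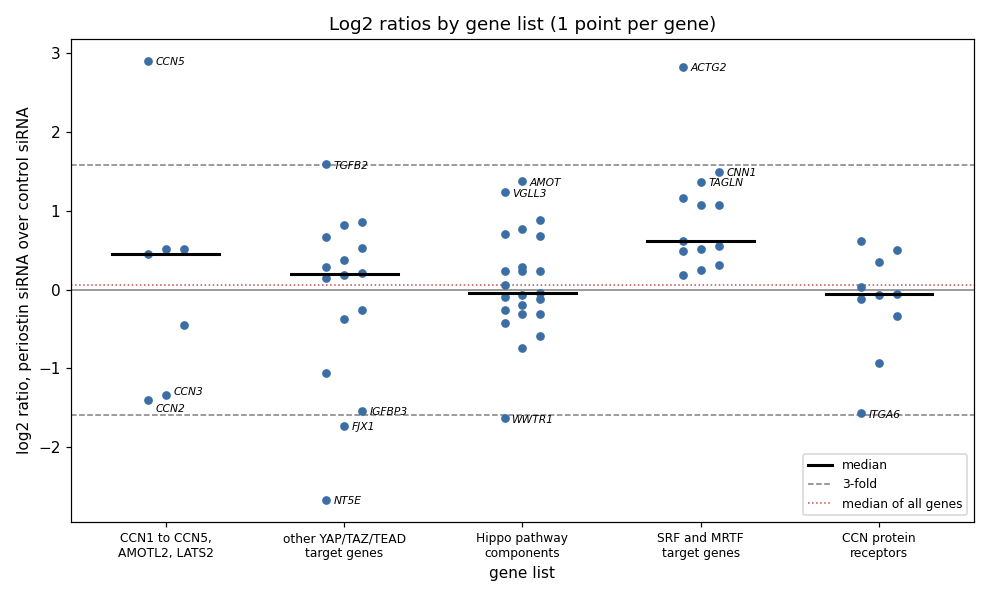
Log2 ratio, periostin over control siRNA (vertical axis) for each gene with a ratio, by gene list, with the median of each list as a bar, the median of all genes as a dotted line and 3-fold as dashed lines. CCN2 and CCN3 lie low and CCN5 high in the first list, and WWTR1 is the lowest Hippo component at -1.63. All 13 SRF and MRTF targets, a list chosen with earlier results known, lie above 0, where 54.5% of all genes with a ratio do.

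The Hippo components themselves had a median log2 ratio of -0.05 over 23 genes, 11 above and 12 below 0, where 54.5% of all genes lay above. By more than 3-fold 0 of 23 were higher and 1 of 23 was lower, where 3.37% and 2.75% of all genes with a ratio were. That gene was WWTR1, which encodes TAZ, one of the coactivators that drive CCN1 and CCN2. Its signal was 638 in the control and 206 after knockdown. The log2 ratio was -1.63 (propagated error 0.20), and the normexp correction took it under 3-fold at -1.38. YAP1, the coactivator related to TAZ and named here for that reason after its value was seen, gave -0.30 ± 0.08 (SD over 10 spots). TEAD1, which binds DNA for both, gave -0.05 and FRMD6, an upstream activator, -0.07. NF2, the merlin tumour suppressor that activates the pathway, gave -0.58. The 3 probes of MOB1B, a LATS cofactor, disagreed in direction, with 0.23 by the brightest and -0.42 and -0.56 by the others.

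CCN1 and CCN2 are also known as targets of SRF and its MRTF coactivators, which drive the contractile genes. All 13 measured genes of an SRF and MRTF list, these factors among them, had ratios above 0 under each of the 13 settings. Of all genes with a ratio, 54.5% lay above 0. The list was chosen with earlier results of these data known, so the count is a description only. Its median log2 ratio was 0.62, whereas CCN1 and CCN2 were lower. ACTG2, the smooth muscle gamma actin, was the 1 of 13 higher by more than 3-fold, at 7266 against 51724, a log2 ratio of 2.83. Of all genes with a ratio, 3.37% were higher and 2.75% lower by more than 3-fold. TAGLN gave 1.37, MYL9 1.08 and TPM2 0.62, whereas FLNA gave 0.31 by one probe and -0.07 by another. Of 10 receptors through which CCN proteins act, 4 lay above and 6 below 0, the median was -0.06 and none was past 3-fold in either direction. NOTCH1, counted below 0, gave -0.93 by its brightest probe and 0.64 ± 0.14 (SD over 10 spots) by its other probe. The integrin chains ITGAV, ITGB5 and ITGA5 lay between -0.06 and 0.03, and ITGB1 gave -0.34 ± 0.04 (SD over 10 spots). ITGA6, named here after its value was seen, had the lowest ratio of the list at -1.57, or 2.96-fold lower, and its second probe gave -1.49. The other receptors were likewise named after their values were seen, with SDC4 at 0.61, ITGB3 at 0.35 and LRP6 at -0.12. LRP1 gave 0.50 ± 0.07 (SD over 10 spots) by its brightest probe and 0.20 by its other probe. With scaling on the median and with loess 1 receptor was past 3-fold.

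The label of the cells was held against marker genes. All 10 fibroblast markers were well above background on both arrays, with a summed signal of 370892 in the control and 328983 after knockdown. Of 6 epithelial markers, 4 were well above background on both arrays. These 4 had ratios above 0, where 54.5% of all genes with a ratio did. EPCAM was higher by 3.90-fold from a control signal of 34.6, where 3.37% of all genes were higher by more than 3-fold. The summed signal of the list was 3287 and 4798. SFTPC, the surfactant protein of alveolar cells, was among these 4 at 33.8 and 53.3, whereas CDH1 and NKX2-1 were not well above background on either array. The endothelial list summed to 5591 and 5305, nearly all of it from TEK. CDH5 and VWF were also well above background on both arrays, KDR with control siRNA alone and PECAM1 on neither. The immune list summed to 33.3 and 54.4. PTPRC was well above background on both arrays by 1 of its 5 probes, at 17.6 and 25.1, CD74 and CD3E with periostin siRNA alone, and LAPTM5 and MS4A1 on neither. The part of these markers in the ratios of the CCN and YAP target genes was not tested.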

How the data were processed

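RNA of MRC-5 cells from 1 culture per condition was labelled with Cy3 and hybridized to SurePrint G3 Human GE 8x60K v2 arrays. The authors deposited the scanner files, made with Agilent Feature Extraction 11.5.1.1 by their header (the submitters' processing notes name 12.0.3.1), whose intensity values are background-subtracted and not scaled between arrays. A second deposited file holds normalized intensity values, which for 100% of the 49697 probes printed once lay within 1% of 1 constant factor per array, 3.65 and 3.54.

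Processed signals of 58717 non-control spots were log2-transformed and scaled to a common 75th percentile in Python 3.11.15 with numpy 2.4.6 and pandas 2.3.3. Of these spots, 58.0% and 58.9% were well above background with control and periostin siRNA, 0 were saturated, and 65.1% were named through RefSeq accessions (GRCh38.p14, names and promoter windows alone, since the array is annotated on hg19). Spots of a probe were averaged, and the brightest probe stood for a gene. A probe well above background on 1 array was given a bound on the other array, namely its own signal there or, if higher, the dimmest signal counted as above background, and a probe below it on both got no ratio. Propagated errors combine those of Feature Extraction on both arrays, which for bright spots were nearly a fixed share of the signal. The spot SD came from probes printed 10 times within 1 log2 unit of a gene's signal. Of all genes past 3-fold 55.1% were higher ones, and 42.9% under the normexp correction.

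With 1 array per condition no test was run. The genes named are the 8 genes, CCN6, POSTN, and from each list those past 3-fold with up to 4 of the brightest others and defining markers. Further genes, IGFBP3, YAP1, ITGA6, NOTCH1, SDC4, ITGB3, LRP6, LRP1 and those of the closing observations, were named after their values had been seen, as were the remaining marker genes. The members and lists were chosen with earlier results of these data known. The calculation was tested on simulated data. Alternatives were normexp (limma 3.58.1, R 4.3.3, offset of 50, on median pixels), no scaling, scaling on the median, on spots well above background or on spike-in probes, quantile normalization, loess (span 0.3, statsmodels 0.14.6), the authors' table, the mean over probes, filters on dim and on flagged spots, the median of spots, and thresholds of 2-fold and 4-fold. Fold changes listed in the study's own tables were not used. CNN2 and LYZ were not analysed here.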

Additional observations from a re-analysis of the deposited data

How the results depend on the processing

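No paired analysis was possible because there was a single array per condition, and leaving out a replicate was likewise impossible. The 7 genes with a ratio kept their direction under the 12 settings, most of which could not change it for genes with 1 spot, as given above. Log2 ratios lay between -1.53 and -1.28 for CCN2, -1.47 and -1.23 for CCN3, and -0.57 and -0.40 for CCN1. They lay between 0.39 and 0.56 for AMOTL2 and for LATS2, 0.13 and 0.49 for CCN4, and 1.84 and 2.95 for CCN5. The median of the 7 genes was 0.13 under normexp, whose offset pulls dim ratios towards 0 by construction, and 0.32 with scaling on the median, which moved the median of all genes by -0.13, to -0.073. CCN5 was past 3-fold under each of them and under a 4-fold threshold, and at 2-fold 2 of the 7 were lower. Over all genes, 190 were lower and 143 higher by 3-fold under normexp, against 441 and 541, 1031 and 1279 at 2-fold, and 274 and 278 at 4-fold. In the main setting 6.42% of the 16050 genes with a ratio were lower and 7.97% higher at 2-fold. At 3-fold these shares were 2.75% and 3.37%. Of the 16 other YAP, TAZ and TEAD targets with a ratio, 0 were higher by 3-fold under normexp, quantile normalization or loess. Scaling on the median or on the spike-in probes and a 4-fold threshold likewise left 0 higher. With scaling on the median 3 were lower by 3-fold, IGFBP3 among them at -1.67. At 2-fold 4 were lower and at 4-fold 1. Of the 23 Hippo components, 0 were lower under normexp and at 4-fold, and 2 were higher at 2-fold. Of the 13 SRF and MRTF targets with a ratio, a list chosen with earlier results known, 6 were higher at 2-fold. Of the 10 receptors 1 was lower with scaling on the median, loess and a 2-fold threshold. Scaling on the median and on the spike-in probes moved all ratios alike, by -0.13 and -0.014. Beyond these settings, normexp and the thresholds, the cause of the shifts was not tested.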

Other observations

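The Hippo components without a value so far, 17 of the 23, are given here whole, named after their values had been seen, as log2 ratios. In the kinase cascade STK3 gave -0.43, STK4 0.06 and -0.046 by its 2 probes, SAV1 -0.31, MOB1A -0.093 and LATS1, dim on both arrays, 0.24, with a bound of 0.68 by its second probe. Among upstream genes WWC1 gave -0.74, TAOK1 -0.12 and MAP4K4 0.24. The TEAD factors beside TEAD1 gave 0.29 for TEAD2, -0.26 for TEAD3 and -0.19 for TEAD4. The angiomotin genes related to AMOTL2 lay above 0 under each of the 13 settings, with AMOTL1 at 0.68 and 1.06 by its 2 probes and AMOT at 1.38 from a dim control signal of 14.5, which the normexp correction took to 0.37. AJUBA and LIMD1, LIM proteins known to inhibit LATS kinases, gave 0.89 and 0.77. VGLL4, which competes with YAP for TEAD, gave 0.70 and 0.49 by its 2 probes, and VGLL3, another TEAD partner, gave 1.24 and 0.21. The components thus lay on both sides of 0.

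The TEAD letters GGAATG were also counted in the promoter windows of the other lists. Of 12 further target genes with a window 5 held them (41.7%), of 19 Hippo components 2 (10.5%), and of all 27305 genes with a window 16.7%. CCN6 held a match at -128 and another at -1.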
